A study of Mus musculus with 8 samples.

Results

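The genes described here are 10 transcripts that mark monocytes and macrophages (Ly6c2, Ccr2, Lyz2, Csf1r, Cx3cr1, Cd14, Fcgr1, Fcgr4, Cd68 and Adgre1), chosen by symbol from the 52636 genes of a count table made from mouse spleen RNA. All 10 were found, and all 10 passed the filter on low counts, with 62 to 38836 counts per library. The study compared mice that carry the R527C substitution in Lmna, which encodes the A-type lamins under the nuclear envelope, with wild-type mice, and its design text names senescence in the mutants as the question. Mice were of the C57BL/6 strain and 6 weeks old, and there were 4 groups of 2 libraries: Lmna R527C mutants 7 days after 4 Gy of irradiation, wild types 7 days after 4 Gy, Lmna R527C mutants without irradiation (day 0), and wild types without irradiation (day 0). The labels do not say whether the mutation was carried on 1 or both alleles, nor whether the mice were littermates. Nothing says that the 2 libraries of a group came from separate mice, so p-values here reflect the scatter among these libraries alone, part of which may be technical.

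Monocytes are made in the bone marrow and held in reserve in the spleen. Classical monocytes carry Ly6C on their surface and leave the marrow through the chemokine receptor CCR2, whereas patrolling monocytes lose Ly6C, express the fractalkine receptor CX3CR1 and, in mice, carry the Fc receptor FcγRIV. Macrophages depend on signals through the receptor CSF1R, and those of the splenic red pulp take up aged red cells and recycle their iron. Each value here comes from RNA of the whole organ, so fewer cells of a type and less RNA per cell cannot be told apart.

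Promoters of the 4 members with the largest difference between unirradiated genotypes are shown because these members moved alike in that comparison. They come from RefSeq (GRCm38.p6) and run from 250 bases before to 50 bases after an annotated start, each 5′ to 3′ on the gene's own strand. Capitals mark the 6 letters GAGGAA, or their reverse complement TTCCTC, the purine box recognised by PU.1, the master transcription factor of the myeloid lineage. In Fcgr1, capitals also mark a TTCNNNGAA match, the spaced palindrome bound by STAT factors, which was looked for after the values had been seen. The windows are Fcgr1 (chr3:96293920-96294219, minus strand), Fcgr4 (chr1:171018676-171018975, plus strand), Ly6c2 (chr15:75111922-75112221, minus strand) and Ccr2 (chr9:124101933-124102232, plus strand).
Fcgr1: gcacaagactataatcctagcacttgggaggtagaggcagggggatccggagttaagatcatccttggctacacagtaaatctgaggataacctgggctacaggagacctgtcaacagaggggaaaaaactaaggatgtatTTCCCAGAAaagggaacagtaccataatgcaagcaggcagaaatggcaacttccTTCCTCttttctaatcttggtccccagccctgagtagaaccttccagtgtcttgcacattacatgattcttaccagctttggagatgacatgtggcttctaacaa
Fcgr4: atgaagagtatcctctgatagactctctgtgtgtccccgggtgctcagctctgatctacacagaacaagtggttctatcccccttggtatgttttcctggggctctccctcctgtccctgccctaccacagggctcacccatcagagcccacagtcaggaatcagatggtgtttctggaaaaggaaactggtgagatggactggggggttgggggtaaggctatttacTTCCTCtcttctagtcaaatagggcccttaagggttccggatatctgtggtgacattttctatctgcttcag
Ly6c2: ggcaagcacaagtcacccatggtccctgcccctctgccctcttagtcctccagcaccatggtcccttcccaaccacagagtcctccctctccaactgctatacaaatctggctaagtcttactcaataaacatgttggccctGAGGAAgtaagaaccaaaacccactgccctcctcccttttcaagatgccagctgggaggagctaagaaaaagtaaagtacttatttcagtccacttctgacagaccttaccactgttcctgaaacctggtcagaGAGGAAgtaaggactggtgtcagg
Ccr2: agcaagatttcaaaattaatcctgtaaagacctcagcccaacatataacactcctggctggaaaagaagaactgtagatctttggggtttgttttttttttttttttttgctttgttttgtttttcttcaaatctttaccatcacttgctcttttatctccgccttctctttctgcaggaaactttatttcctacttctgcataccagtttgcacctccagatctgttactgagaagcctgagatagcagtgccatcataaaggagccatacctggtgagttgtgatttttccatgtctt
The GAGGAA box began 55 bases before the start of Fcgr1 and 22 bases before that of Fcgr4. It was present both 108 bases before and 26 bases after the start of Ly6c2 shown here, which are 142 and 8 bases before another annotated start of that gene, and the window of Ccr2 held no match. Windows were found for 7 members, of which 4 (these 3 and Cd68) held the box on either strand, against 28.3% of 32851 promoter windows of the same length. The TTCNNNGAA letters were found for 1 of the 7 members, against 8.3% of all windows. A member counted if any of its windows held the letters, and Ly6c2 had more than 1, whereas the shares are of single windows. No window was found for Csf1r, Cd14 or Adgre1.

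The 8 libraries held 12100784 to 19455470 gene counts, and 17327 genes were tested. Replicates were closer together without irradiation than after it. The share of genes that differed more than 2-fold between the 2 libraries of a group was 42.7% in irradiated mutants, 27.0% in irradiated wild types, 3.93% in unirradiated mutants and 6.34% in unirradiated wild types. Xist was high in all 4 irradiated libraries and the Y-linked transcripts were at 0 in each of them, whereas all 4 unirradiated libraries had Y-linked transcripts, so irradiation, day and sex-linked expression cannot be told apart. Comparisons between genotypes lie within each day and do not cross this split. Levels are CPM, a gene's counts relative to the library's total after TMM scaling, and differences are log2 fold changes from edgeR with their standard errors (SE). A gene is said to pass the test at an adjusted p under 0.05 over all genes tested.

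Per length of transcript, Lyz2 was the most abundant member in every group. In RPKM, which divides CPM by the length of the merged exons in kilobases, its level was 811 ± 898 in irradiated mutants, 558 ± 330 in irradiated wild types, 1320 ± 75.8 in unirradiated mutants and 1115 ± 179 in unirradiated wild types (SD, n = 2 each). Ly6c2 held the second place in both unirradiated groups, at 128.5 RPKM in mutants and 51.6 RPKM in wild types. In irradiated mutants Fcgr4 (50.6 RPKM), Cd68 (48.9 RPKM) and Csf1r (44.7 RPKM) stood next after Lyz2, and the ranges of Fcgr4 and Cd68 overlapped. In irradiated wild types the order after Lyz2 was Cd68 (28.1 RPKM), Csf1r (19.2 RPKM), Ly6c2 (15.1 RPKM) and Fcgr4 (11.97 RPKM), and neighbours overlapped except Ly6c2 and Fcgr4. At the low end, Ccr2 was last in irradiated mutants (5.17 RPKM), Fcgr1 in irradiated wild types (2.28 RPKM), Cx3cr1 in unirradiated mutants (4.59 RPKM) and Fcgr1 in unirradiated wild types (3.92 RPKM).

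**Figure D1:**
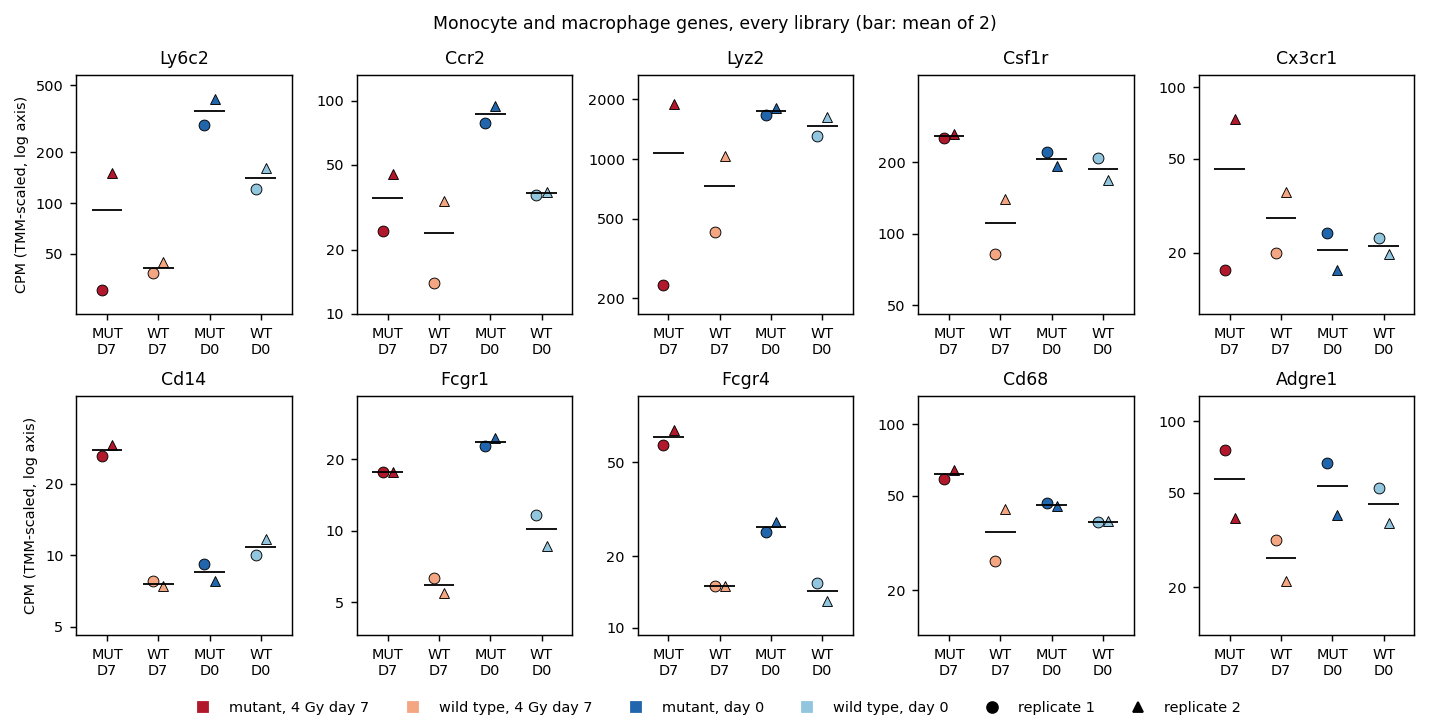
CPM of each of the 10 genes in every library, on a logarithmic axis. Points are single libraries (circles replicate 1, triangles replicate 2) and bars are the means of 2. Cd14, Fcgr1 and Fcgr4 are close between replicates in both irradiated groups, whereas Lyz2, Ly6c2 and Cx3cr1 differ widely between the 2 irradiated mutant libraries (232 and 1903 CPM for Lyz2).

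At day 7 after irradiation, both mutant libraries had more Csf1r, Cd14, Fcgr1, Fcgr4, Cd68 and Adgre1 than both wild-type libraries, while Ly6c2, Ccr2, Cx3cr1 and Lyz2 overlapped between genotypes. All 10 log2 fold changes lay above 0, with a median of 1.12, against a median of 0.02 over all genes tested, of which 51.6% lay above 0. The groups did not overlap for these 6 members, whereas 10.4% of all genes were higher and 7.46% lower without overlap. None of the 10 passed edgeR's test, in which 0 of 17327 genes passed (0.0%). Unadjusted p lay under 0.05 for 6 of the 10 members and for 696 genes in all. DESeq2 called 61 genes, of which 58 were higher in mutants (0.367% of the 15788 with an adjusted p), and 3 of these were the members Cd14, Fcgr1 and Fcgr4. Limma-voom with library weights and edgeR's fit of the 4 irradiated libraries alone called 0 genes, with adjusted p = 1.0 for these 3 members in that fit of 4 libraries.

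Among the sensing receptors, Cd14 (ENSMUSG00000051439.6, chromosome 18, start 36725067, end 36726798), the co-receptor that hands lipopolysaccharide to TLR4, had 26.2 and 29.1 CPM in irradiated mutants, against 7.75 and 7.42 CPM in irradiated wild types. Both mutant libraries stood above both wild types, and the replicates of each group lay close together. The difference was 3.64-fold (log2 fold change 1.87 ± 0.30, SE; edgeR adjusted p = 0.812, DESeq2 adjusted p = 0.000523). Fcgr4 (ENSMUSG00000059089.4, chromosome 1, start 171018920, end 171029761) encodes the activating Fc receptor FcγRIV, which binds IgG2 immune complexes. It had 59.2 and 68.0 CPM in irradiated mutants, against 15.05 and 15.01 CPM in irradiated wild types. Mutant libraries again stood clear of wild types, by 4.23-fold, the largest difference among the 10 members (log2 fold change 2.08 ± 0.27; edgeR adjusted p = 0.812, DESeq2 adjusted p = 4e-06). Fcgr1 (ENSMUSG00000015947.10, chromosome 3, start 96282909, end 96293969), the high-affinity IgG receptor FcγRI, had 17.6 and 17.6 CPM in irradiated mutants, against 6.31 and 5.48 CPM in irradiated wild types. The groups did not overlap, and the difference was 2.99-fold (log2 fold change 1.58 ± 0.31; edgeR adjusted p = 0.886, DESeq2 adjusted p = 0.0227).

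Csf1r (ENSMUSG00000024621.15, chromosome 18, start 61100598, end 61132149), the receptor for the growth factors CSF1 and IL-34, had 253 and 263 CPM in irradiated mutants, against 81.9 and 140 CPM in irradiated wild types. Both mutant libraries were higher, and the wild types differed from each other by 1.71-fold (log2 fold change 1.22 ± 0.35; edgeR adjusted p = 1.0). Cd68 (ENSMUSG00000018774.13, chromosome 11, start 69664213, end 69666153), a glycoprotein of macrophage lysosomes, had 58.9 and 64.0 CPM in irradiated mutants, against 26.6 and 44.0 CPM in irradiated wild types. Its groups did not overlap either (log2 fold change 0.80 ± 0.30; edgeR adjusted p = 1.0). Adgre1 (ENSMUSG00000004730.14, chromosome 17, start 57358691, end 57483527) encodes F4/80, the classic surface marker of mouse macrophages. It had 75.4 and 39.3 CPM in irradiated mutants, against 31.5 and 21.3 CPM in irradiated wild types. The lower mutant library was above the higher wild type by a small margin, and replicate 1 was the higher library in both genotypes (log2 fold change 1.12 ± 0.43; edgeR adjusted p = 1.0).

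Ly6c2, Ccr2, Cx3cr1 and Lyz2 overlapped between genotypes at day 7. Ly6c2 (ENSMUSG00000022584.14, chromosome 15, start 75108158, end 75111970), which encodes the Ly6C of classical monocytes, had 30.7 and 150.5 CPM in irradiated mutants, against 38.4 and 44.5 CPM in irradiated wild types. Ccr2 (ENSMUSG00000049103.14, chromosome 9, start 124101950, end 124113557), the receptor for the chemokine CCL2, had 24.4 and 45.5 CPM in irradiated mutants, against 14.0 and 33.9 CPM in irradiated wild types. For both genes the higher mutant library was replicate 2, while replicate 1 was below both wild types in Ly6c2 and between them in Ccr2. Cx3cr1 (ENSMUSG00000052336.7, chromosome 9, start 119901616, end 120069879), the fractalkine receptor, had 16.9 and 73.7 CPM in irradiated mutants, against 19.9 and 36.2 CPM in irradiated wild types. Lyz2 (ENSMUSG00000069516.8, chromosome 10, start 117277331, end 117282321), the lysozyme of monocytes, macrophages and neutrophils, had 232 and 1903 CPM in irradiated mutants, against 428 and 1041 CPM in irradiated wild types. In Cx3cr1 and Lyz2 the 2 mutant libraries were the lowest and the highest of the 4. Without irradiated mutant replicate 2, the log2 fold changes of these 4 members turned negative, to -0.49 for Ly6c2, -0.03 for Ccr2, -1.72 for Lyz2 and -0.79 for Cx3cr1.

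The other 6 members kept a positive difference whichever of the 8 libraries was left out, with ranges from 0.48 to 1.20 for Cd68 and from 1.92 to 2.22 for Fcgr4. The number of members that passed edgeR's test changed with the irradiated mutant libraries. Without replicate 1 of that group 4 members passed, namely Ly6c2, Cd14, Fcgr1 and Fcgr4, among 482 genes (203 of them higher in mutants). Without replicate 2 there were 2, Cd14 and Fcgr4, among 275 genes (72 higher). Each of these fits holds 1 irradiated mutant library, which is assumed to vary as the libraries of the other groups do, and it drops the pair of replicates that differed most.

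**Figure D2:**
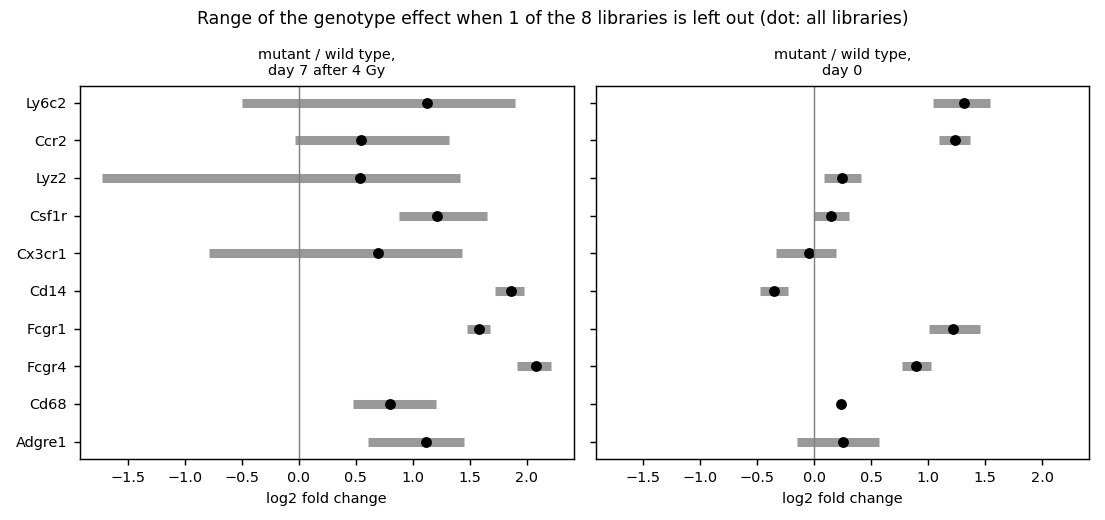
Log2 fold change of mutant over wild type for each gene at day 7 after 4 Gy (left) and at day 0 (right), from edgeR. Dots are the estimates from all 8 libraries and grey bars span the estimates with 1 library left out. At day 7 the bars of Ly6c2, Ccr2, Lyz2 and Cx3cr1 cross 0, and those of the other 6 genes do not.

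Without irradiation Ly6c2, Ccr2, Fcgr1 and Fcgr4 were higher in both mutant libraries than in both wild types, while Csf1r, Cx3cr1 and Adgre1 overlapped between genotypes. Ly6c2, the marker of classical monocytes, had the largest estimate and also the largest SE of these 4. Of the 10 members, 8 had log2 fold changes above 0, with a median of 0.25, against a median of -0.03 over all genes tested (46.7% above 0). The groups did not overlap for 6 members that were higher and 1 that was lower in mutants, and this was so for 20.8% (higher) and 25.0% (lower) of all genes. In edgeR's fit of all 8 libraries 0 of 10 members passed, among 0 of 17327 genes (0.0%). Unadjusted p lay under 0.05 for 388 genes, 3 of them members, and DESeq2 called 55 genes and no member. A fit of the 4 unirradiated libraries alone, which does not share the spread of the irradiated ones, called 4 of the 10 members higher (Ly6c2, Ccr2, Fcgr1 and Fcgr4), against 2.27% of 16665 genes.

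Ly6c2 had 291 and 413 CPM in unirradiated mutants, against 121 and 162 CPM in unirradiated wild types. Both mutant libraries exceeded both wild types, by 2.49-fold (log2 fold change 1.32 ± 0.65; adjusted p = 1.0 over all libraries and 0.00813 in the unirradiated libraries alone, both from edgeR). Ccr2 had 78.7 and 94.6 CPM in unirradiated mutants, against 36.3 and 37.2 CPM in unirradiated wild types. Here the wild-type replicates were nearly equal and the difference was 2.36-fold (log2 fold change 1.24 ± 0.46; edgeR adjusted p = 1.0 over all libraries and 0.00217 in the unirradiated ones). Fcgr1 had 22.7 and 24.5 CPM in unirradiated mutants, against 11.7 and 8.60 CPM in unirradiated wild types. The groups were well apart, by 2.32-fold (log2 fold change 1.22 ± 0.30; edgeR adjusted p = 1.0 and 0.0114 in the unirradiated libraries). Fcgr4 had 25.3 and 27.8 CPM in unirradiated mutants, against 15.5 and 13.03 CPM in unirradiated wild types. Its difference of 1.86-fold (log2 fold change 0.89 ± 0.26; edgeR adjusted p = 1.0 and 0.0268 in the unirradiated libraries) had the smallest SE of the 4.

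The other 6 members had smaller estimates between unirradiated genotypes. Csf1r had 222 and 193.5 CPM in unirradiated mutants, against 208 and 168 CPM in unirradiated wild types (log2 fold change 0.14 ± 0.35). Cd68 had 46.4 and 45.2 CPM in unirradiated mutants, against 38.6 and 39.1 CPM in unirradiated wild types (log2 fold change 0.24 ± 0.30). The gap in Cd68 was small beside that of the Fc receptors, although its libraries did not overlap. Adgre1 had 66.5 and 40.3 CPM in unirradiated mutants, against 52.2 and 37.4 CPM in unirradiated wild types (log2 fold change 0.25 ± 0.42). Cx3cr1 had 24.4 and 16.9 CPM in unirradiated mutants, against 23.0 and 19.7 CPM in unirradiated wild types (log2 fold change -0.05 ± 0.62). In both of these the mutant libraries spanned or overlapped the wild types. Lyz2 had 1666 and 1807 CPM in unirradiated mutants, against 1301 and 1634 CPM in unirradiated wild types (log2 fold change 0.24 ± 0.84). Cd14 had 9.20 and 7.77 CPM in unirradiated mutants, against 10.02 and 11.64 CPM in unirradiated wild types (log2 fold change -0.35 ± 0.29). Cd14 was thus the member that was lower in both mutant libraries. None of these 6 passed edgeR's test in the fit of all libraries (adjusted p = 1.0 each) or in that of the unirradiated libraries.

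Neutrophil transcripts moved with the difference between unirradiated genotypes. The summed level of 10 neutrophil markers was 5593 and 10700 CPM in unirradiated mutants, against 1606 and 1374 CPM in unirradiated wild types. All 10 of them were higher in both mutant libraries, none was at 0, and their median log2 fold change was 2.49. Neutrophils also express Lyz2, and part of the further classical monocyte list, such as Chil3 and Hp, is shared with them. The part of neutrophil RNA in the values of Ly6c2, Ccr2, Fcgr1 and Fcgr4 was not tested. The summed markers of B cells were 1911 and 1927 CPM in unirradiated mutants, against 2890 and 3711 CPM in unirradiated wild types.

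**Figure D3:**
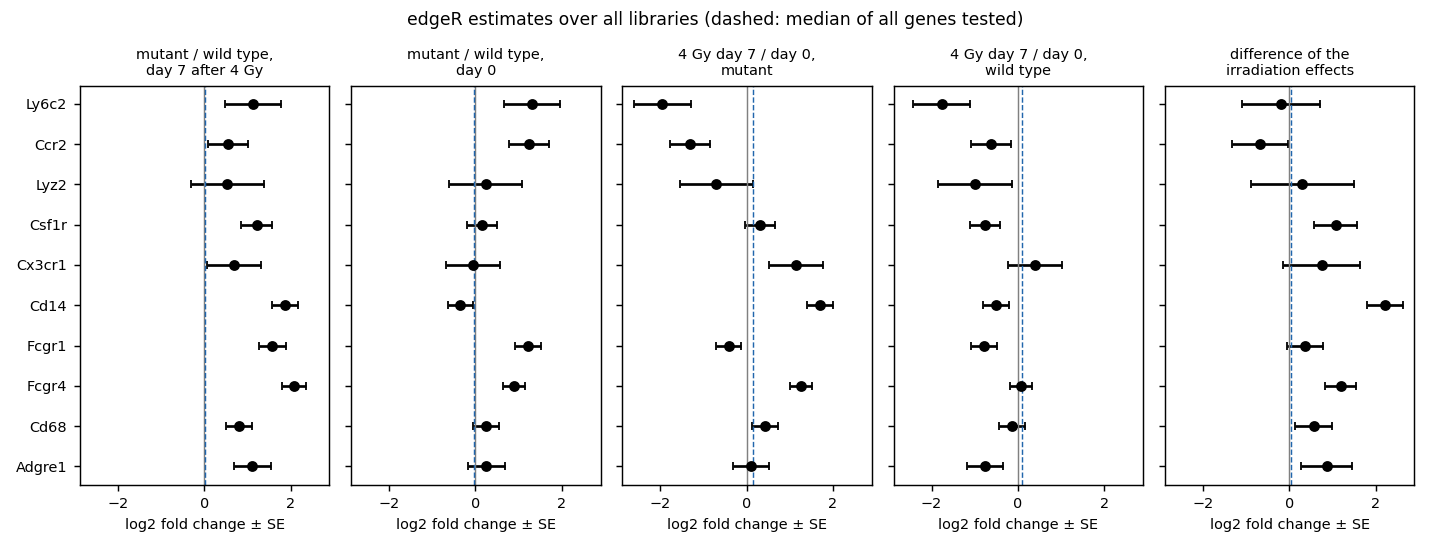
Log2 fold changes with SE from edgeR's fit of all 8 libraries for the 2 genotype contrasts, the 2 irradiation contrasts and the difference between irradiation effects (mutant minus wild type). The dashed line is the median of all genes tested. The estimates for Cd14, Fcgr1 and Fcgr4 lie furthest above 0 at day 7 (1.87, 1.58 and 2.08), and those for Ly6c2 lie below 0 in both irradiation contrasts (-1.96 in mutants and -1.77 in wild types).

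In mutants both irradiated libraries had less Ly6c2 and Ccr2 and more Cd14 and Fcgr4 than both unirradiated ones. Of the 10 members 4 were higher without overlap (Csf1r, Cd14, Fcgr4 and Cd68) and 3 were lower (Ly6c2, Ccr2 and Fcgr1), which was so for 26.9% (higher) and 25.7% (lower) of all genes. The members' median log2 fold change was 0.21, against 0.14 over all genes tested. edgeR called 104 genes (0.6%) and none of the members, though 4 members and 3836 genes had an unadjusted p under 0.05. The 104 included the sex-linked transcripts Xist (higher) and Ddx3y, Kdm5d, Uty and Eif2s3y (lower), so this count is not one of irradiation alone. Ly6c2 was 3.88-fold lower in irradiated than in unirradiated mutants (log2 fold change -1.96 ± 0.66; edgeR adjusted p = 0.155), and even its highest irradiated library, at 150.5 CPM, was below the lowest unirradiated library, at 291 CPM. Ccr2 was 2.47-fold lower (log2 fold change -1.31 ± 0.46; edgeR adjusted p = 0.168). Cd14 was 3.26-fold higher in irradiated mutants (log2 fold change 1.70 ± 0.30; edgeR adjusted p = 0.0651) and Fcgr4 was 2.40-fold higher (log2 fold change 1.26 ± 0.26; edgeR adjusted p = 0.0844). DESeq2 called 3 of the members, Cd14 and Fcgr4 as higher and Ly6c2 as lower, against 5.23% of 18650 genes higher and 3.94% lower. In the fit with a replicate block Cd14 passed edgeR's test (adjusted p = 0.0483).

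The remaining members of irradiated mutants lay closer to their unirradiated level. Fcgr1 was lower in both irradiated libraries (log2 fold change -0.42 ± 0.30), whereas Csf1r (0.31 ± 0.35) and Cd68 (0.42 ± 0.30) were higher in both. Lyz2 (-0.70 ± 0.85), Cx3cr1 (1.14 ± 0.63) and Adgre1 (0.10 ± 0.42) overlapped. Lyz2 and Cx3cr1 changed the sign of their difference when 1 of the 2 irradiated mutant libraries was left out. Without replicate 2 of the irradiated mutants, Lyz2 was at -3.05 and Cx3cr1 at -0.44, and without replicate 1 they were at 0.08 and 1.78. Adgre1 was at -0.50 without replicate 1.

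In wild types the members were mostly lower after irradiation, and none was higher without overlap. The 7 that were lower in both irradiated libraries were Ly6c2, Ccr2, Lyz2, Csf1r, Cd14, Fcgr1 and Adgre1. Over all genes 29.7% were higher and 27.8% lower without overlap. The members' median log2 fold change was -0.69, against 0.09 over all genes tested, and 2 members lay above 0 (Cx3cr1 at 0.39 ± 0.62 and Fcgr4 at 0.07 ± 0.26). edgeR called 10 genes (0.0577%) and none of the members. Among these 10 genes were the 5 sex-linked transcripts Xist, Ddx3y, Kdm5d, Uty and Eif2s3y. Unadjusted p lay under 0.05 for 2 members and 2991 genes, and DESeq2 called 917 genes and no member. Ly6c2 had the largest difference, with 38.4 and 44.5 CPM in irradiated wild types, against 121 and 162 CPM in unirradiated wild types. It was 3.41-fold lower (log2 fold change -1.77 ± 0.66; edgeR adjusted p = 0.244), and it passed in the fit of the 4 wild-type libraries alone, in which 1107 genes passed. Lower values were also estimated for Fcgr1 (-0.79 ± 0.31), Csf1r (-0.76 ± 0.35), Adgre1 (-0.76 ± 0.43), Ccr2 (-0.62 ± 0.46), Cd14 (-0.51 ± 0.30) and Lyz2 (-0.999 ± 0.853). For Cd68 the irradiated libraries lay on either side of the unirradiated ones (-0.14 ± 0.30).

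The genotype contrasts and the irradiation contrasts share libraries, so their values are not independent of each other. The difference between the irradiation effects was tested directly. Of the 10 members 8 had a positive value, meaning a higher ratio of irradiated to unirradiated level in mutants, with a median of 0.65, against 0.05 over all genes tested. For Cd14 it was 2.22 ± 0.42 on the log2 scale, for Fcgr4 1.19 ± 0.37 and for Csf1r 1.07 ± 0.49. edgeR called 0 of 17327 genes (0.0%), with an adjusted p = 1.0 for each member. Unadjusted p lay under 0.05 for 277 genes, of which 2 were members (Cd14 and Fcgr4), and DESeq2 called 2 genes and no member. Cd14 had opposite directions in the 2 genotypes, since both irradiated mutant libraries were above the unirradiated mutants and both irradiated wild types were below the unirradiated wild types. Csf1r did the same by a smaller margin.

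The balance between members was described by each library's counts divided by those of Csf1r, a ratio that does not depend on library scaling. Ly6c2 had 0.121 and 0.572 counts per Csf1r count in irradiated mutants, 0.469 and 0.318 in irradiated wild types, 1.31 and 2.13 in unirradiated mutants and 0.581 and 0.965 in unirradiated wild types. Without irradiation the mutants had the higher ratio, and after it the genotypes overlapped. Ccr2 gave ratios of 0.0963 and 0.173 in irradiated mutants, 0.171 and 0.242 in irradiated wild types, 0.355 and 0.489 in unirradiated mutants and 0.174 and 0.221 in unirradiated wild types. The unirradiated mutants were above every other library for Ccr2 and for Ly6c2. Fcgr4 gave 0.234 and 0.259 in irradiated mutants, 0.184 and 0.107 in irradiated wild types, 0.114 and 0.144 in unirradiated mutants and 0.0746 and 0.0776 in unirradiated wild types. Relative to Csf1r, Fcgr4 was thus higher in mutants on both days. Fcgr1 gave 0.0696 and 0.0669 in irradiated mutants, which lay between the irradiated wild types at 0.0770 and 0.0391. It gave 0.102 and 0.127 in unirradiated mutants and 0.0562 and 0.0512 in unirradiated wild types, with no overlap. Cd14 gave 0.103 and 0.111 in irradiated mutants, 0.0946 and 0.0529 in irradiated wild types, 0.0415 and 0.0402 in unirradiated mutants and 0.0482 and 0.0693 in unirradiated wild types. A ratio shows only that the genes changed unequally.

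**Figure D4:**
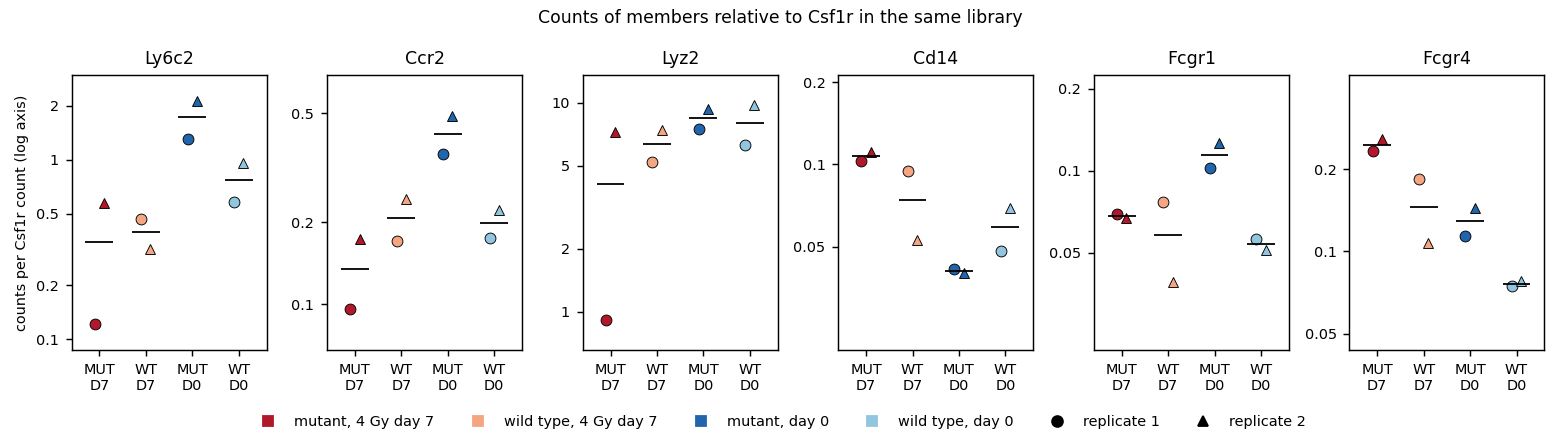
Counts of 6 members divided by the Csf1r count of the same library, on a logarithmic axis. Points are libraries (circles replicate 1, triangles replicate 2) and bars are means of 2. Ly6c2 and Ccr2 are highest in unirradiated mutants, whereas Cd14 and Fcgr4 are highest in irradiated mutants (0.103 and 0.111 for Cd14, 0.234 and 0.259 for Fcgr4).

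Further genes of the pathway were listed by role, with results of these data known. Their counts without overlap stand beside shares over all genes of 10.4% higher and 7.46% lower between irradiated genotypes, and 20.8% higher and 25.0% lower between unirradiated ones. The share of all genes above 0 was 51.6% and 46.7% in these comparisons. Among 10 partners and signalling genes of the CD14, Fc and CSF1R receptors, 9 had positive differences between irradiated genotypes, and 4 of these did not overlap, with a median of 0.46. Fcgr3, the low-affinity Fc receptor that neighbours Fcgr4, had 59.9 and 73.7 CPM in irradiated mutants, against 17.8 and 18.7 CPM in irradiated wild types (log2 fold change 1.87 ± 0.27; edgeR adjusted p = 0.812). Tlr4, the receptor that CD14 serves, had 16.1 and 13.9 CPM in irradiated mutants, against 3.97 and 7.24 CPM in irradiated wild types (log2 fold change 1.42 ± 0.42). Fcer1g, the signalling chain of FcγRI, FcγRIII and FcγRIV, had 301 and 309 CPM in irradiated mutants, against 132.5 and 208.5 CPM in irradiated wild types (log2 fold change 0.84 ± 0.34). The activating receptors and their chain were thus high in both irradiated mutant libraries. The inhibitory receptor Fcgr2b overlapped between the genotypes, with 27.6 and 73.8 CPM in irradiated mutants and 30.1 and 52.8 CPM in irradiated wild types. None of the 10 passed in any of the 4 contrasts. Without irradiation 9 of the 10 had positive differences between genotypes, 7 of them without overlap, and the median was 0.30. The same 10 had a median of -0.22 between irradiated and unirradiated mutants and -0.77 between irradiated and unirradiated wild types.

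The 8 further genes of classical monocytes (among them F13a1, Chil3, Vcan, Plac8, Ms4a6c, Ifi204 and Hp) were not called in any contrast. Their median log2 fold change was 1.56 between irradiated genotypes, where 8 of 8 were above 0 and 4 did not overlap, and 1.27 between unirradiated genotypes, where 7 were higher in mutants without overlap. It was -1.30 between irradiated and unirradiated mutants and -1.18 between irradiated and unirradiated wild types. F13a1, a coagulation factor subunit made by monocytes, had 3.74 and 10.96 CPM in irradiated mutants, 1.80 and 3.27 CPM in irradiated wild types, 38.6 and 49.7 CPM in unirradiated mutants and 24.8 and 17.4 CPM in unirradiated wild types. It was higher in mutants on both days and lower after irradiation in both genotypes, without overlap in any of these comparisons. Hp, which encodes haptoglobin, had 28.6 and 123.8 CPM in irradiated mutants, against 5.50 and 6.01 CPM in irradiated wild types (log2 fold change 3.73 ± 0.71, edgeR adjusted p = 0.886). Neutrophils share Hp, and the part of neutrophils and of liver and fat tissue in its level was not tested. Ifi204, an interferon-induced gene, had 51.7 and 85.7 CPM in irradiated mutants, against 26.9 and 19.5 CPM in irradiated wild types, and 55.8 and 57.5 CPM in unirradiated mutants, against 20.4 and 20.6 CPM in unirradiated wild types.

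The 7 further genes of patrolling monocytes (Ace, Treml4, Ear2, Eno3, Cd300e, Itgal and Spn) had medians of 0.18 between irradiated genotypes and 0.50 between unirradiated ones. Ear2 and Treml4 were higher in both irradiated mutant libraries, and the other 5 overlapped. Of the 10 further macrophage genes (Itgam, Mrc1, Mertk, Sirpa, Lgals3, Ctss, Ctsb, Lamp2, Msr1 and Cd84), all 10 were above 0 between irradiated genotypes and 6 did not overlap, with a median of 0.80. Msr1, a scavenger receptor, had 21.1 and 51.5 CPM in irradiated mutants, against 5.23 and 4.95 CPM in irradiated wild types (log2 fold change 2.84 ± 0.47; edgeR adjusted p = 0.812). Mertk, a receptor for the uptake of dead cells, had 90.8 and 62.2 CPM in irradiated mutants, against 23.4 and 35.8 CPM in irradiated wild types. Mrc1, the mannose receptor, had 205.8 and 58.7 CPM in irradiated mutants, against 33.4 and 42.9 CPM in irradiated wild types. Both irradiated mutant libraries were above both irradiated wild types for these 3, but those of Mrc1 were far apart, and the lower was within the range of the unirradiated libraries. Without irradiation the median of the list was 0.36, and none of its genes was called in any contrast.

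Ligands of the members' receptors were low, apart from Csf1, and none of the 7 was called. Ccl2, Ccl7, Ccl8 and Ccl12, which encode CC chemokines, were high in 1 library, irradiated mutant replicate 2, with 15.2, 15.7, 31.3 and 12.6 CPM. In the other irradiated mutant library they had 2.10, 0.818, 0.117 and 0.934 CPM, and the irradiated wild types had at most 2.70 CPM of each; the list's median between irradiated genotypes was 1.65. Csf1 had 59.0 and 99.8 CPM in irradiated mutants, 40.6 and 81.9 CPM in irradiated wild types, 40.3 and 38.9 CPM in unirradiated mutants and 32.2 and 30.2 CPM in unirradiated wild types. It was higher in each irradiated group than in its unirradiated one, without passing the test. The 9 transcription factors of the lineage (among them Spi1, Irf8, Klf4, Cebpb, Cebpa, Nr4a1, Zeb2 and Irf5) included no called gene. Their median was 0.06 between genotypes on both days. Without overlap, 3 were higher and 1 (Nr4a1) was lower in irradiated mutants than in irradiated wild types (10.4% and 7.46% of all genes). Between unirradiated genotypes 3 were higher and 3 lower in mutants (20.8% and 25.0% of all genes). Zeb2 had 120.8 and 109.3 CPM in irradiated mutants, against 71.4 and 75.7 CPM in irradiated wild types (log2 fold change 0.65 ± 0.27). Spi1, which encodes PU.1, had 27.3 and 62.7 CPM in irradiated mutants, against 36.0 and 62.6 CPM in irradiated wild types. Nr4a1, on which patrolling monocytes depend, had 11.2 and 29.2 CPM in irradiated mutants, against 48.3 and 53.3 CPM in irradiated wild types.

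Markers of other cells moved with the difference between irradiated genotypes. The summed level of 12 red pulp and marginal macrophage markers was 4285 and 3371 CPM in irradiated mutants, 1471 and 2092 CPM in irradiated wild types, 1605 and 1283 CPM in unirradiated mutants and 1344 and 1248 CPM in unirradiated wild types. All 12 lay above 0 between irradiated genotypes (51.6% of all genes), 10 of them higher without overlap (10.4% of all genes), with a median of 1.19, and Vsig4 was at 0 in irradiated wild type replicate 2. The complement gene C1qc was called higher in irradiated than in unirradiated mutants (log2 fold change 2.07 ± 0.31; edgeR adjusted p = 0.0369). The difference of Csf1r at day 7 was thus accompanied by a like difference in markers of resident macrophages, and the part of those cells in it was not tested. Neutrophil markers summed to 244 and 187 CPM in irradiated mutants, against 225 and 101 CPM in irradiated wild types, with Ly6g at 0 in irradiated wild type replicate 2. Of these markers 8 of 10 lay above 0 between irradiated genotypes, 3 of them higher without overlap (Ly6g, Cxcr2 and Csf3r), with a median of 0.40. For Ly6g this rested on few counts, 7 and 26 in irradiated mutants against 9 and 0 in irradiated wild types. Its lower mutant library (0.818 CPM) and higher wild type (0.811 CPM) were nearly equal. S100a8, S100a9, Mmp8, Ngp, Ltf and Camp, 6 of the 10, were called lower in irradiated than in unirradiated mutants (edgeR called 0.6% of all genes there).

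The irradiated mutant libraries differed in their other cells too. B cell markers summed to 77.4 and 973 CPM in irradiated mutants, against 595 and 1200 CPM in irradiated wild types. T cell markers summed to 106 and 865 CPM in irradiated mutants, against 336 and 622 CPM in irradiated wild types, and no B or T cell marker was at 0. Erythroid markers summed to 17750 and 1450 CPM in irradiated mutants, against 9289 and 6337 CPM in irradiated wild types. Replicate 1 of the irradiated mutants was thus the library with the most erythroid and the least lymphoid RNA, and it had the lowest Ly6c2 and Lyz2 of all 8 libraries. Cd14, Fcgr1 and Fcgr4 differed by at most 1.15-fold between these same 2 libraries. Alb, a liver transcript, was at 0 in all unirradiated libraries and present in all irradiated ones. The 6 adipose and liver markers summed to 421 and 506 CPM in irradiated mutants, against 82.3 and 125 CPM in irradiated wild types. Between irradiated genotypes all 6 lay above 0 (51.6% of all genes), with a median of 2.405, though 0 of them were free of overlap. Their median between unirradiated genotypes was -0.07. The parts of red cell precursors, lymphocytes and neighbouring tissue in the members' values were not tested. Of the remaining lists, markers of dendritic cells had a median of -0.32 between irradiated genotypes and 0.12 between unirradiated ones, those of natural killer cells 1.22 and 0.61, and those of stroma 0.70 and -0.74.

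**Figure D5:**
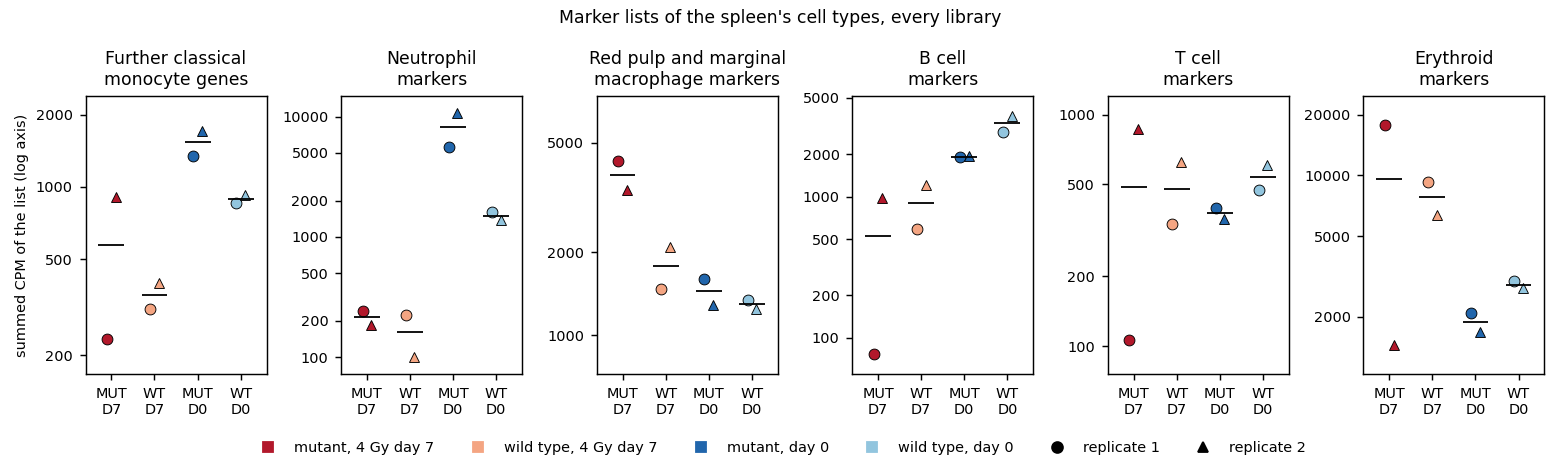
Summed CPM of 6 marker lists in every library, on a logarithmic axis, with points for libraries (circles replicate 1, triangles replicate 2) and bars for means of 2. Neutrophil markers are highest in unirradiated mutants (5593 and 10700 CPM) and red pulp and marginal macrophage markers in irradiated mutants (4285 and 3371 CPM), while lymphocyte and erythroid markers separate the 2 irradiated mutant libraries.

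Genes with the most similar pattern were sought for each member among 10785 genes with a mean of at least 5 CPM, by the root-mean-square difference of centred log2 CPM over the 8 libraries. This is a description of 8 samples that share their cell make-up and depth. The closest match of any member was that of Cd68 with Cd300c2 (a difference of 0.09), followed by Afap1l2 (0.11) and Trpm2 (0.12). Csf1r was nearest to Slc11a1 (0.15), which encodes the phagosomal metal transporter NRAMP1, then to Lipa (0.17), the lysosomal acid lipase, and Gucy1a1 (0.18). Fcgr1 was nearest to Pilra (0.20), Pilrb1 (0.20) and Gvin1 (0.31), and Adgre1 to Adgre4 (0.19), a gene of the same receptor family, then Fcna (0.26) and Sh2d1b1 (0.26). Cd14 was nearest to Clec4n (0.27), which encodes the fungal receptor Dectin-2, Ms4a4d (0.27) and C1qb (0.29), and Fcgr4 to Aoah (0.33), the enzyme that inactivates lipopolysaccharide, Clec4n (0.33) and Fndc3b (0.33). Ccr2 was nearest to Rab3d (0.17), Apobr (0.20) and Palm (0.21), and Cx3cr1 to Anxa4 (0.15), Slco2b1 (0.19) and Rtn1 (0.19). Ly6c2 had no match below 0.36, the value for Clec5a, and was followed by Gfi1 (0.38) and Adssl1 (0.41). Lyz2 was nearest to Cmah (0.24), Cxcr3 (0.24) and Gimap4 (0.25), genes of lymphocytes among them.

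Some members share sequence with a neighbouring copy, and the authors' rule for reads that map to several places was not given in the sources used here. Of the stretches of 50 bases in Ly6c2 transcripts, 14.4% also occurred in another gene's transcripts, as did 15.4% of those of Lyz2 and 1.91% of those of Ccr2. For Csf1r, Cd14, Fcgr1, Fcgr4, Cd68 and Adgre1 it was 0.0%. Ly6c1, the near copy of Ly6c2 on endothelial and T cells, had 57.9 and 112 CPM in irradiated mutants, 48.5 and 59.5 CPM in irradiated wild types, 39.2 and 41.8 CPM in unirradiated mutants and 31.6 and 41.1 CPM in unirradiated wild types. It did not follow Ly6c2, since it was higher, not lower, in the irradiated mutants than in the unirradiated ones (log2 fold change 1.07 ± 0.36; edgeR adjusted p = 0.155). Lyz1, the copy of Lyz2 best known from the gut, had 1.99 and 15.4 CPM in irradiated mutants, 10.4 and 27.4 CPM in irradiated wild types, 15.1 and 10.9 CPM in unirradiated mutants and 14.1 and 21.9 CPM in unirradiated wild types. Exons of Csf1r overlap those of Hmgxb3 on the opposite strand over 873 bases, and those of Cx3cr1 overlap Gm33858 over 78 bases. Reads there could not be told apart by position if strand was not used. Whether such reads were counted or left out was not given in the sources used here.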

How the data were processed

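Spleen RNA of 8 libraries was measured by RNA sequencing, in 4 groups of 2 taken from the sample titles. Per the submitters' processing notes, the authors used Trim Galore, Subread and featureCounts, and named the builds hg38 and mm10 without saying which samples each served. Versions, annotation, strand setting and treatment of multiply mapped reads were not given in the sources used here. The deposited values were whole-number counts per gene, not normalised, as the authors made them; 0 count columns belonged to no sample. The growth protocol in the labels describes human cells and was not used.

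Symbols and coordinates came from GENCODE M21 (GRCm38), which named 52489 of 52636 identifiers (49121 with the same version). filterByExpr (minimum count 10, total 15) kept 17327 genes. edgeR 4.0.16 (R 4.3.3) fitted all 8 libraries with a term per group after TMM scaling and tested 5 contrasts by its quasi-likelihood F test, with Benjamini-Hochberg adjustment over all genes and a threshold of 0.05 (residual degrees of freedom 4, prior 3.88, common dispersion 0.152). SE is the absolute log2 fold change over the square root of F. RPKM used merged exon lengths. A count of 0 allows up to 3 counts, or 0.131 to 0.350 CPM, for counting error only.

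Alternatives were DESeq2 1.42.0, limma-voom with library weights (limma 3.58.1), other scalings, no filter, a replicate block, 2-group fits and leaving out each library. Replicates differed beyond counting noise (chi-square over degrees of freedom of 19.1 to 331), and the procedure was tested on simulated counts. Members and lists were chosen with earlier results of these data known. All members are named in every contrast; from each list, genes that were called or at most 3 with the smallest p are named, as are near copies and the 3 most similar genes per member, leaving out predicted, clone-named and antigen receptor genes. Fcgr2b, Csf1, Ccl2, Ccl7, Ccl8, Ccl12, Spi1, F13a1, Ear2, Treml4, Vsig4, Ly6g, Cxcr2 and Csf3r were named outside this rule after their values were seen. Alb and Xist, which were called between irradiated and unirradiated mutants, were also named after their values were seen. Some listed genes are not reported here by name.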

Additional observations from a re-analysis of the deposited data

Results flagged for a closer look

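The irradiation effects on Cd14 and Csf1r pointed in opposite directions in the 2 genotypes. Both irradiated mutant libraries were above both unirradiated mutants, and both irradiated wild types were below both unirradiated wild types. Irradiation, day and sex-linked expression cannot be told apart in these comparisons. The difference between the irradiation effects, mutants minus wild types, was 2.22 on the log2 scale for Cd14 and 1.07 for Csf1r. For Cd14 the genotype effect, too, had opposite directions on the 2 days, higher in both mutants at day 7 and lower in both at day 0, with the same difference of 2.22. edgeR's test of the difference gave an adjusted p = 1.0 for both genes.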

How the results depend on the processing

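Of the members' log2 fold changes recomputed under the alternatives, 673 stayed on their side of the threshold with the same direction, 39 passed the threshold only under the alternative and 28 turned their direction. The cause was not tested. Members called between unirradiated genotypes were 0, but 4 with limma-voom library weights and 4 in the 2-group fit; over all genes the count was 0, with DESeq2 55, limma-voom weights 395, no filter 143, the 2-group fit 469 and 0 to 15 with a library left out. Between irradiated genotypes 0 members were called, with DESeq2 3, with no filter 2 and with a library left out 0 to 4; over all genes 0, 61 (DESeq2), 168 (no filter) and 0 to 482 (a library left out). Between irradiated and unirradiated mutants 0 members were called, with DESeq2 3, no filter 3 and 0 to 5 with a library left out; over all genes 104, with DESeq2 1710, no filter 2147, the 2-group fit 0 and 3 to 4428 with a library left out. In wild types 0 members were called, with limma-voom weights, no filter and the 2-group fit 1 each (Ly6c2) and 0 to 1 with a library left out; over all genes 10, with DESeq2 917, limma-voom weights 598, no filter 1580, the 2-group fit 1107 and 0 to 2551 with a library left out. The interaction called 0 members under every alternative run, and over all genes 0, with DESeq2 2 and no filter 52.

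With a replicate block, 1 member (Cd14) and 253 genes passed between irradiated and unirradiated mutants, 16 genes in wild types, and 0 in the genotype contrasts and the interaction. Deviations of same-numbered libraries correlated at 0.035 to 0.465 between groups, but nothing says that a number marks a shared mouse, litter or day.

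With a library left out, log2 fold changes turned as follows. Between irradiated genotypes Ly6c2 ranged from -0.49 to 1.90, Ccr2 from -0.033 to 1.32, Lyz2 from -1.72 to 1.42 and Cx3cr1 from -0.79 to 1.43. Between unirradiated genotypes Csf1r ranged from -0.005 to 0.31, Cx3cr1 from -0.34 to 0.19 and Adgre1 from -0.15 to 0.57. In mutants after irradiation Lyz2 ranged from -3.05 to 0.079, Cx3cr1 from -0.44 to 1.78 and Adgre1 from -0.50 to 0.49. In wild types Cx3cr1 ranged from -0.12 to 0.74, Fcgr4 from -0.068 to 0.19 and Cd68 from -0.56 to 0.16. For the interaction Ly6c2 ranged from -1.83 to 0.56, Ccr2 from -1.29 to 0.085, Lyz2 from -1.99 to 1.15 and Cx3cr1 from -0.76 to 1.46. With limma-voom weights Lyz2 was at -0.043 between irradiated genotypes and -0.29 in the interaction, where the replicate block gave -0.002. With no filter Adgre1 was at -0.082 in mutants and Fcgr4 at -0.028 in wild types after irradiation. Both other scalings kept every direction and call of the members. With 2 libraries a group, differences of genes that vary as Lyz2 does after irradiation are poorly fixed, although depth (at least 62 counts) does not limit them.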
